A study of Mus musculus with 19 samples.

Results

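Complement is a cascade of plasma and tissue proteins that marks material for removal, and this report describes 9 of its genes in the brain of SCA17 knock-in mice. The members were the rows of the deposited count table whose GENCODE M21 gene name is *C1qa*, *C1qb*, *C1qc*, *C3*, *C4b*, *C3ar1*, *C5ar1*, *Itgam* or *Serping1*. All 9 were among the 41128 genes of the table, and all 9 passed the filter on low counts that left 16841 genes for testing. SCA17, spinocerebellar ataxia type 17, is a movement disorder caused by an expanded glutamine tract in the TATA-binding protein TBP. The knock-in (KI) mice were germline SCA17 knock-ins on the C57BL/6 strain and carried the expanded tract in their own *Tbp* gene. They derived from *TBP* floxed mice crossed with EIIa-Cre mice, in which Cre is active in the early embryo, followed by a cross with wild-type (WT) mice, so that the mutation was not limited to 1 cell type. The controls were WT mice of the same strain, and all mice were 3 months old and had no treatment. Whole-tissue RNA was sequenced in 19 libraries, with 3 WT and 4 KI libraries from the cerebellum (CB) and 3 of each genotype from both the striatum (STR) and the prefrontal cortex (PFC). The labels number the libraries within each region and genotype without stating that they came from separate mice, and the study's methods give 3 to 4 mice per genotype. P values therefore measure the spread between these libraries.

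In the classical pathway, C1q, built of the A, B and C chains, recognises its target and starts the cleavage of C4 and then of C3. Cleaved C3 coats the target, and phagocytes take it up through complement receptor 3, of which *Itgam* encodes the CD11b chain. The small fragments C3a and C5a signal through C3AR1 and C5AR1, and the C1 inhibitor encoded by *Serping1* restrains the first step. In brain, microglia are the main source of C1q and carry CD11b, and C1q and C3 are known for their part in the removal of synapses. Levels are given in CPM, the reads of a gene after scaling all libraries to 1 common total with TMM factors, and levels of different genes are compared as CPM per kilobase of exon. A gene was called when its P value from the edgeR quasi-likelihood test, adjusted over the 16841 genes by the Benjamini-Hochberg method, was under 0.05.

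Library totals ranged from 10639110 to 17431284 counts. The counts did not read the length of the glutamine tract, so *Tbp* does not check the genotype. Its level was 52.5 to 62.0 CPM in WT and 48.5 to 56.6 CPM in KI cerebellum, and it was not called in any region (adjusted P = 0.687 to 0.921). Marker genes matched the labelled regions, since all 6 genes of the cerebellar neuron list were called higher in WT cerebellum than in WT striatum and WT prefrontal cortex, and all 5 genes of the striatal neuron list were called higher in WT striatum than in both. Choroid plexus transcripts set some libraries apart. Their summed level was 1860 CPM in WT replicate 1 and 4690 CPM in KI replicate 3 of the cerebellum against 7.68 to 16.4 CPM in the other 5 cerebellar libraries, 1470 to 8520 CPM in the striatum and 11.1 to 42.4 CPM in the prefrontal cortex. The 4 calls of complement members between KI and WT cerebellum held without either of these 2 libraries, and 2 calls of members in other comparisons, given with their values below, were lost without WT replicate 1.

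The question of the first comparison was whether the knock-in changed the level of these genes in each region. In the KI cerebellum 4 members rose, namely the 3 C1q chains and *Itgam*, by 1.94- to 2.43-fold, and no member fell. In the background of all tested genes, 0.517% were called higher and 0.315% lower there. Not one of the 9 was called in the striatum, where 0.392% of all genes were called higher and 0.190% lower, or in the prefrontal cortex, where 0.0891% were called higher and 0.0178% lower. DESeq2 and limma likewise called 0 members in these 2 regions, and at an unadjusted level of 0.05 edgeR found 1 member in the striatum, *C1qa*, and 0 in the prefrontal cortex. Every KI library lay above every WT library for 6 members in the cerebellum and for 0 in either other region. Such separation held for 5.82%, 5.65% and 4.38% of all tested genes in cerebellum, striatum and prefrontal cortex, in this order. The median log2 fold change of the members was 0.96 in cerebellum, 0.14 in striatum and -0.11 in prefrontal cortex, beside 0.01, -0.01 and 0.00 over all tested genes.

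**Figure D1:**
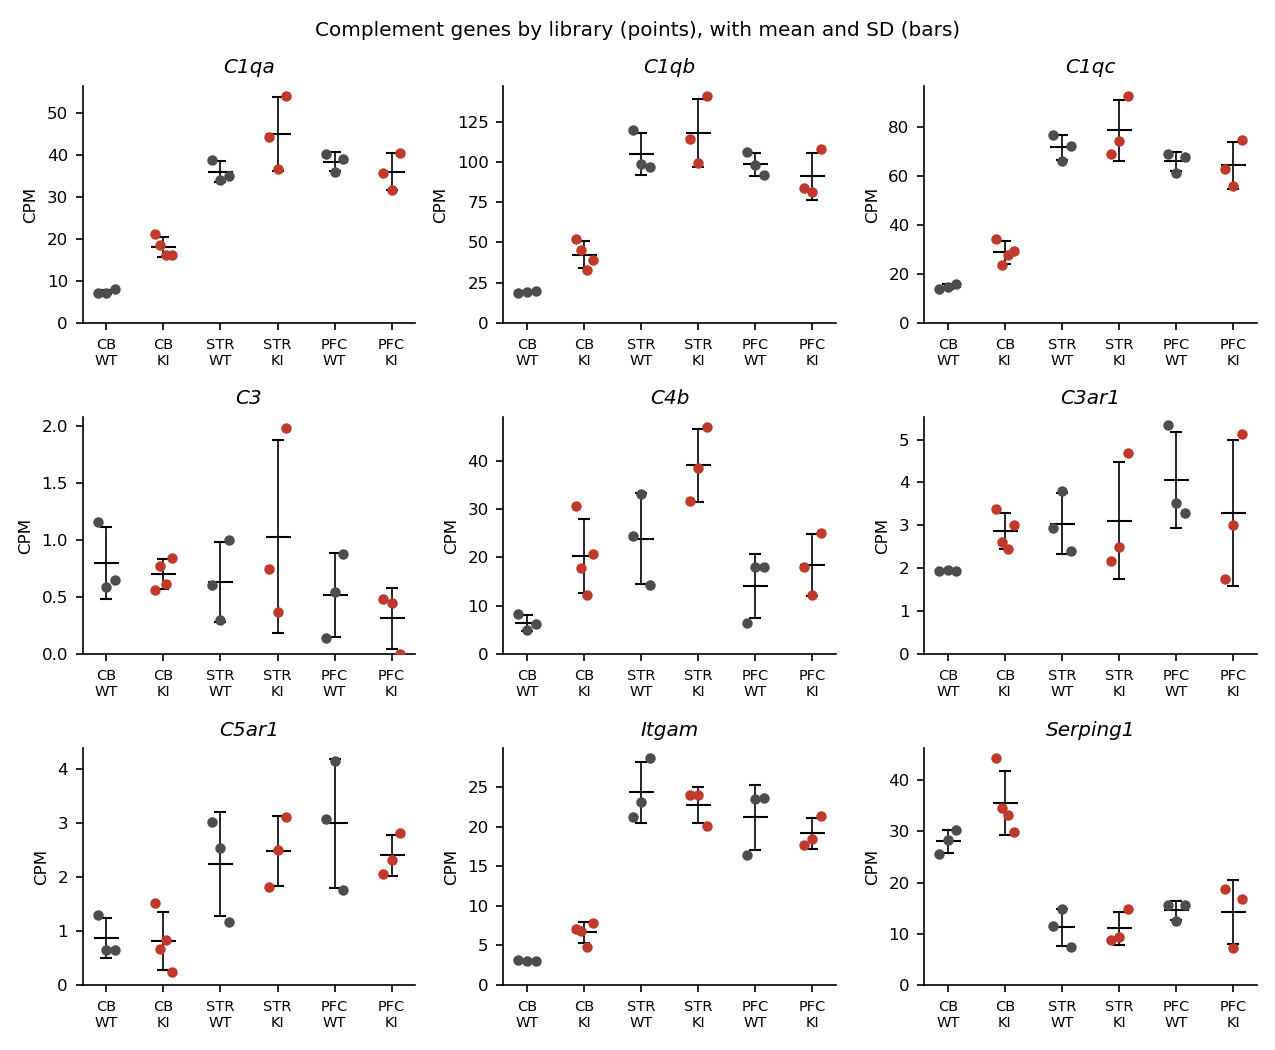
CPM of the 9 genes in each of the 19 libraries (points, grey for WT and red for KI), with the mean and SD of each of the 6 groups of region and genotype. The KI cerebellum points of *C1qa*, *C1qb*, *C1qc*, *C4b*, *C3ar1* and *Itgam* all lie above the WT cerebellum points, and *Serping1* is the member whose WT cerebellum points, 25.6 to 30.2 CPM, lie above all WT points of the other regions.

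The genes of the C1q chains lie side by side on the minus strand of chromosome 4 (GRCm38), within 18.7 kb at chr4:136880129-136898803. *C1qb* (ENSMUSG00000036905) spans chr4:136880129-136886187, *C1qc* (ENSMUSG00000036896) spans chr4:136889804-136893065 and *C1qa* (ENSMUSG00000036887) spans chr4:136895917-136898803. *Itgam* (ENSMUSG00000030786) lies on the plus strand at chr7:128062640-128118491. The promoters of called members are shown because these genes rose together, and RefSeq entries (GRCm38.p6, 250 bases before to 50 after the start) were used for *C1qb*, *C1qc* and *Itgam*. Capitals mark the core GAGGAA bound by the myeloid factor PU.1, printed as TTCCTC where it lies on the opposite strand, and the GC box GGGCGG, printed as CCGCCC on the opposite strand. The windows are chr4:136886151-136886450 for *C1qb*, chr4:136892865-136893164 for *C1qc* and chr7:128062390-128062689 for *Itgam*, each written along the strand of its gene.
C1qb: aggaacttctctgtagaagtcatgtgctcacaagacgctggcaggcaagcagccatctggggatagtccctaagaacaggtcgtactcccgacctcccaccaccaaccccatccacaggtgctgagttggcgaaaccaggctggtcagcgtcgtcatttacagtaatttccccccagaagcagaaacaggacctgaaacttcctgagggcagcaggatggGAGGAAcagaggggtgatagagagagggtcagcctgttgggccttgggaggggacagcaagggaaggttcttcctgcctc
C1qc: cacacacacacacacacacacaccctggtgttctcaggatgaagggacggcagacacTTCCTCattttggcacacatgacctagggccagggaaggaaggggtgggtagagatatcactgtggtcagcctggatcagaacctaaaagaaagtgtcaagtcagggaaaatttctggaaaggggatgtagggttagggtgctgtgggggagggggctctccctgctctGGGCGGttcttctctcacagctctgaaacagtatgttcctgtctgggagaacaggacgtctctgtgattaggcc
Itgam: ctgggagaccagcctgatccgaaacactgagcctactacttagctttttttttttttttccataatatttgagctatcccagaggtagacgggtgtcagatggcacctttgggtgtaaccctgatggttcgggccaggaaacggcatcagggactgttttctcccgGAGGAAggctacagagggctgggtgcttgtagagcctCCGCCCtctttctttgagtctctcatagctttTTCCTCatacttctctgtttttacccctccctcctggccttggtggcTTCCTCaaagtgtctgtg
The PU.1 core begins 30 bases before the start of *C1qb*, 193 bases before that of *C1qc*, and at 84 and 15 bases before and 33 bases after that of *Itgam*. Both strands were searched, no 2 of these matches overlap, and 28.3% of 32851 promoters of the same length hold the PU.1 core and 35.7% the GC box. No entry was matched for the called *C1qa* or the uncalled *C4b* and *Serping1*, so their windows were not searched. Of the uncalled members with an entry, *C3ar1*, *C5ar1* and *C3* hold no PU.1 core in this window, and *C3ar1* holds the GC box 76 bases before its start. *C5ar1* holds GAAANNGAA, the letters of an interferon-stimulated response element, 66 bases before its start, as do 8.56% of promoters. TATAAA, the letters of the TATA box, is in 13.6% of promoters. *C3* holds it at base 15 from its start and *C3ar1* 235 bases before its start. The STAT site TTCNNNGAA is in none of the 6 windows and in 8.3% of promoters. These matches describe the letters of the windows and were not measured as binding sites.

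*C1qa*, the A chain, was at 7.13, 7.21 and 8.01 CPM in WT cerebellum and at 21.2, 18.6, 16.2 and 16.3 CPM in KI cerebellum. The groups did not overlap, and the lowest KI library was above 2 times the highest WT library (99 to 111 reads in WT and 269 to 376 in KI). The log2 fold change was 1.28 (SE 0.140, adjusted P = 1.39e-04). In the striatum *C1qa* was at 38.9, 34.1 and 35.1 CPM in WT and at 44.3, 36.7 and 54.1 CPM in KI, where 1 KI library lay inside the WT range, and it was not called (log2 fold change 0.32, 95% interval 0.03 to 0.61, adjusted P = 0.524). In the prefrontal cortex it was at 40.3, 36.0 and 39.0 CPM in WT and at 35.8, 31.7 and 40.5 CPM in KI. These groups overlapped, with a log2 fold change of -0.10 (95% interval -0.38 to 0.19).

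*C1qb*, the B chain, was at 18.6, 19.5 and 19.7 CPM in WT cerebellum and at 52.0, 45.6, 33.2 and 39.2 CPM in KI cerebellum. It rose by 1.14 on the log2 scale (SE 0.156, adjusted P = 6.44e-04). *C1qc*, the C chain, was at 13.8, 14.9 and 15.9 CPM in WT and at 34.5, 23.6, 27.8 and 29.4 CPM in KI cerebellum. Its log2 fold change was 0.96 (SE 0.136, adjusted P = 9.35e-04). For both chains all 4 KI libraries were above all 3 WT libraries. Neither chain was called elsewhere, since the striatum gave log2 fold changes of 0.17 for *C1qb* (95% interval -0.16 to 0.49) and 0.13 for *C1qc* (-0.15 to 0.42), and the prefrontal cortex -0.11 (-0.44 to 0.21) and -0.04 (-0.32 to 0.25).

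The balance of the chains can be compared per kilobase of exon. *C1qb* stood at 2.36 to 2.58 times *C1qa* in WT cerebellum and at 1.95 to 2.35 times in KI cerebellum. *C1qc* stood at 1.04 to 1.11 times *C1qa* in WT cerebellum and at 0.681 to 0.975 times in KI cerebellum. Both ratios were lower in every KI library than in every WT library of the cerebellum, and this difference was not tested. In the striatum *C1qb* stood at 2.64 to 2.96 times *C1qa* in WT and at 2.45 to 2.58 times in KI, so that every KI library was below every WT library there too, and in the prefrontal cortex the ranges overlapped at 2.25 to 2.60 in WT and 2.24 to 2.55 in KI. In the other regions the ratio of *C1qc* to *C1qa* was 1.05 to 1.11 in WT and 0.840 to 1.09 in KI striatum, and 0.919 to 0.936 in WT and 0.945 to 0.994 in KI prefrontal cortex. In the prefrontal cortex this ratio went the other way, since every KI library was above every WT library.

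*Itgam*, which encodes the CD11b chain of complement receptor 3, was at 3.21, 3.08 and 2.99 CPM in WT cerebellum and at 7.15, 6.87, 4.76 and 7.86 CPM in KI cerebellum. KI replicate 3 was the lowest of the KI libraries and still above the WT range. The gene rose by 1.10 on the log2 scale (SE 0.187, adjusted P = 0.00552). In the striatum it was at 21.2, 23.2 and 28.7 CPM in WT and at 24.1, 24.0 and 20.1 CPM in KI, with a log2 fold change of -0.10 (95% interval -0.47 to 0.27). In the prefrontal cortex it was at 16.4, 23.5 and 23.7 CPM in WT and at 17.7, 18.5 and 21.4 CPM in KI, with a log2 fold change of -0.15 (-0.52 to 0.22). In both of these regions the genotypes overlapped.

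*Itgb2* encodes CD18, the chain that pairs with CD11b in the same receptor. It was at 2.12, 2.23 and 1.70 CPM in WT cerebellum and at 5.57, 2.77, 3.53 and 5.68 CPM in KI cerebellum, without overlap. Its log2 fold change of 1.11 (SE 0.257) did not reach the threshold (adjusted P = 0.0521), while DESeq2 gave an adjusted P of 0.00778 and limma 0.0487.

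*C4b* encodes C4, which is cleaved after C1q binds, and it varied more between libraries than the C1q chains. It was at 8.23, 4.98 and 6.15 CPM in WT cerebellum and at 30.5, 17.8, 12.2 and 20.7 CPM in KI cerebellum. The groups did not overlap, and the log2 fold change of 1.65 was the largest of the 9, but with an SE of 0.395 it was not called (95% interval 0.82 to 2.49, adjusted P = 0.0626). The call depended on the fit, since DESeq2 gave an adjusted P of 0.00104, the cerebellar libraries alone gave 0.0412, and leaving out single libraries gave 0.0253 to 0.297. In the striatum *C4b* was at 24.3, 33.0 and 14.3 CPM in WT and at 31.7, 38.4 and 46.9 CPM in KI, and in the prefrontal cortex at 6.37, 18.0 and 17.9 CPM in WT and at 17.9, 12.3 and 25.1 CPM in KI. Both pairs of groups overlapped, with log2 fold changes of 0.71 (95% interval -0.11 to 1.53) for striatum and 0.38 (-0.46 to 1.22) for prefrontal cortex. *C4b* (ENSMUSG00000073418) lies on the minus strand at chr17:34728380-34743882, 19.2 Mb from *Tbp* on the same chromosome. Of the 101 tested genes within 1 Mb of it 3 were called higher in cerebellum, 1 in striatum and 0 in prefrontal cortex. The shares of all tested genes called higher were 0.517%, 0.392% and 0.0891%, in this order. The median log2 fold changes of these neighbours were -0.02, 0.00 and 0.06. The neighbouring *C4a* is a near-identical copy, so that counts of both are uncertain where reads could match either gene. *C4a* itself was low, at 0.162 to 3.00 CPM over all libraries, and the ratio of *C4b* to *C4a* ranged from 4.1 to 181.

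*C3*, the central protein of the cascade, was close to the limit of detection, with 193 reads in all 19 libraries together. It was at 1.16, 0.590 and 0.647 CPM in WT cerebellum and at 0.563, 0.776, 0.616 and 0.846 CPM in KI cerebellum, which overlap. One KI library of the prefrontal cortex held 0 reads, which allows a level of up to 0.282 CPM for counting error alone. The log2 fold changes were -0.20 (95% interval -1.54 to 1.15) in cerebellum, 0.71 (-0.75 to 2.17) in striatum and -0.63 (-2.29 to 1.04) in prefrontal cortex. The cerebellar interval held rises of the size of *C1qb* (1.14) and *C1qc* (0.96) but not that of *C1qa* (1.28), so that these counts resolved little. *C3* (ENSMUSG00000024164, chr17:57203970-57228136) is also on chromosome 17, 41.68 Mb from *Tbp*. Of the 37 tested genes within 1 Mb of it 0 were called higher in any region and 1 was called lower, in the striatum, where 0.190% of all genes were called lower.

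The receptors for C3a and C5a were also low. *C3ar1* (ENSMUSG00000040552, chr6:122847138-122856161) was at 1.93, 1.97 and 1.94 CPM in WT cerebellum and at 3.38, 2.61, 2.46 and 3.02 CPM in KI cerebellum. All KI libraries were above the WT libraries, but it was not called (log2 fold change 0.56, 95% interval -0.16 to 1.27, adjusted P = 0.639) on 24 to 60 reads per library. *C5ar1* (ENSMUSG00000049130, chr7:16246743-16259540) was at 1.29, 0.655 and 0.647 CPM in WT and at 1.52, 0.665, 0.840 and 0.242 CPM in KI cerebellum, with 4 to 27 reads per library. Its groups overlapped (log2 fold change -0.08, 95% interval -1.14 to 0.97). In the striatum and prefrontal cortex the 2 receptors had log2 fold changes between -0.33 and 0.14, and their genotypes overlapped.

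*Serping1* (ENSMUSG00000023224, chr2:84765387-84775444), the inhibitor of the first step, was at 25.6, 28.3 and 30.2 CPM in WT cerebellum and at 44.4, 34.6, 33.1 and 29.9 CPM in KI cerebellum. KI replicate 4 lay inside the WT range and the gene was not called (log2 fold change 0.34, 95% interval -0.23 to 0.91, adjusted P = 0.750). Its log2 fold change was -0.03 in both other regions, with 95% intervals of -0.66 to 0.61 in the striatum and -0.66 to 0.59 in the prefrontal cortex. KI replicate 1 of the cerebellum, the highest for *Serping1*, *C4b* and all 3 C1q chains, also had the highest summed level of perivascular macrophage markers, 32.2 CPM against 10.8 to 14.2 CPM in the other 6 cerebellar libraries. Without this library the 3 C1q chains and *Itgam* were still called, and the log2 fold change of *C4b* was 1.38 (adjusted P = 0.177).

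**Figure D2:**
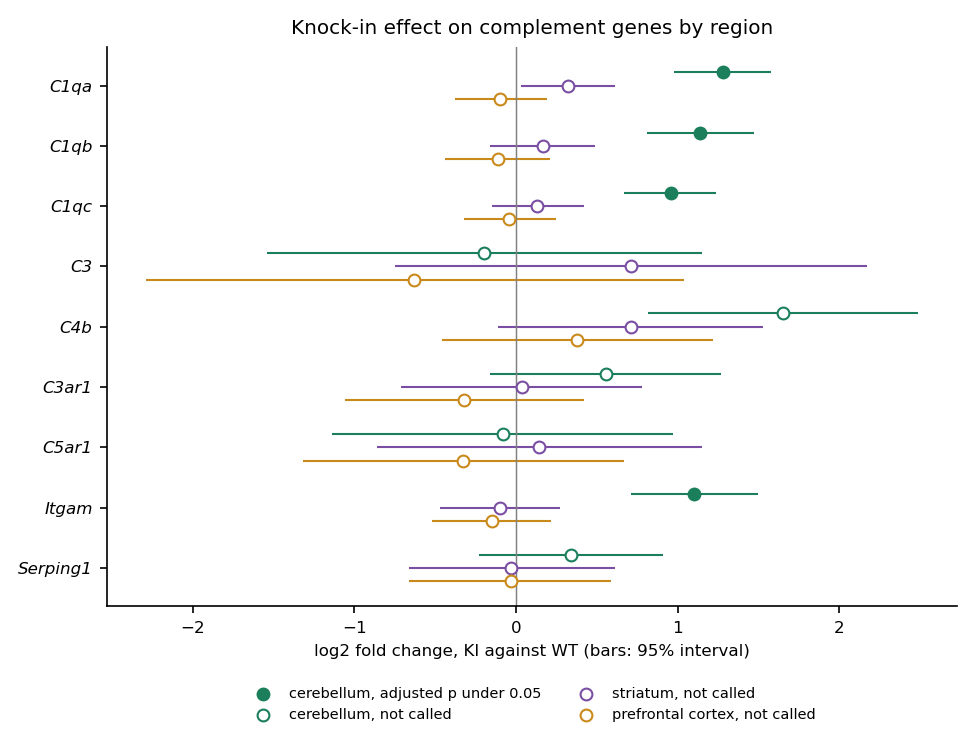
Log2 fold change of KI against WT for the 9 genes, by brain region, from the edgeR fit, with bars for 95% intervals and filled points for genes called at an adjusted P under 0.05. The filled points are the 4 cerebellar values from 0.96 to 1.28, and the wide bars of *C3* and *C5ar1* show how little their counts could resolve.

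The next comparison asked whether the knock-in effect itself differed between regions. Only *C1qa* was called among the members, with an effect in the cerebellum that exceeded that in the prefrontal cortex by 1.38 on the log2 scale (SE 0.195, adjusted P = 0.0116), where 0.0178% of all genes were called. The call was lost on leaving out any of 5 libraries, namely WT replicates 1 and 2 of the cerebellum and KI replicates 1 and 2 and WT replicate 1 of the prefrontal cortex, with adjusted P up to 0.0704. *C1qb* had a difference of 1.26 (95% interval 0.79 to 1.72, adjusted P = 0.0663), *C1qc* of 0.99 (0.59 to 1.40, adjusted P = 0.125) and *Itgam* of 1.25 (0.71 to 1.79, adjusted P = 0.179). Between the cerebellum and the striatum 0 members were called by edgeR, where 0.0119% of all genes were called, although 4 had an unadjusted P under 0.05. These were the C1q chains and *Itgam*, with differences of 0.96 (95% interval 0.55 to 1.37), 0.98 (0.52 to 1.44), 0.83 (0.42 to 1.23) and 1.20 (0.66 to 1.74). DESeq2 called these 4 genes in both comparisons, and limma called *C1qa* against the prefrontal cortex and 0 members against the striatum. Between the striatum and the prefrontal cortex 0 members and 0% of all genes were called by edgeR, 0 members were called by DESeq2 and limma, and *C1qa* alone had an unadjusted P under 0.05.

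In WT mice the levels of these genes differed by region. The C1q chains and *Itgam* were lower in the cerebellum than in both other regions, by 4.45- to 7.84-fold, and *Serping1* was higher. Of the 9 members, 6 were called lower and 1 higher in WT cerebellum than in WT striatum, where 28.7% of all genes were called lower and 27.8% higher. Against WT prefrontal cortex 7 were called lower and 1 higher, where the shares of all genes were 26.9% and 25.1%. Between WT striatum and WT prefrontal cortex 0 members were called by edgeR, DESeq2 or limma and 0 had an unadjusted P under 0.05, where 14.0% of all genes were called higher and 16.4% lower. These comparisons share the WT cerebellum libraries with one another and with the knock-in comparison of the cerebellum. Fewer cells of a type and less RNA per cell cannot be told apart in whole tissue.

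*Itgam* had the widest regional difference, with a level in the cerebellum 2.97 lower on the log2 scale than in the striatum (SE 0.198, adjusted P = 1.55e-09) and 2.77 lower than in the prefrontal cortex (SE 0.197, adjusted P = 4.67e-09). *C1qa* was at 34.1 to 38.9 CPM in WT striatum and 36.0 to 40.3 CPM in WT prefrontal cortex, against 7.13 to 8.01 CPM in WT cerebellum. The 4 KI cerebellum libraries, at 16.2 to 21.2 CPM, stayed below the WT libraries of both other regions. The same held for *C1qb*, at 33.2 to 52.0 CPM in KI cerebellum against 96.8 to 120 CPM in WT striatum, for *C1qc*, at 23.6 to 34.5 against 66.4 to 76.7 CPM, and for *Itgam*, at 4.76 to 7.86 against 21.2 to 28.7 CPM. *C4b* did not follow this pattern, since its KI cerebellum libraries, at 12.2 to 30.5 CPM, overlapped WT striatum, at 14.3 to 33.0 CPM, and WT prefrontal cortex, at 6.37 to 18.0 CPM.

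*C4b* was lower in WT cerebellum by 1.89 on the log2 scale against the striatum (SE 0.415, adjusted P = 9.87e-04) and by 1.13 against the prefrontal cortex (SE 0.414, adjusted P = 0.0305). *C5ar1* was lower by 1.36 (SE 0.510, adjusted P = 0.0317) and by 1.77 (SE 0.506, adjusted P = 0.00728). *C3ar1* was lower than in the prefrontal cortex by 1.06 (SE 0.359, adjusted P = 0.0203) and was not called against the striatum (log2 fold change -0.64, 95% interval -1.41 to 0.12). Some of these calls were lost on leaving out single libraries. They were those of *C4b* (adjusted P up to 0.112) and *C3ar1* (up to 0.10) against the prefrontal cortex and that of *C5ar1* against the striatum (up to 0.119), each lost without any of 4 libraries. For *C3ar1* these were the 3 WT libraries of the cerebellum and WT replicate 1 of the prefrontal cortex, and without WT replicate 1 of the cerebellum the adjusted P was 0.0518. With same-numbered libraries of a genotype joined in a replicate block, *C4b* against the prefrontal cortex was at -1.07 and no longer called (adjusted P = 0.0741).

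*Serping1* ran the other way. It was at 7.49 to 14.8 CPM in WT striatum and 12.4 to 15.7 CPM in WT prefrontal cortex, below the lowest WT cerebellum library at 25.6 CPM. The cerebellum was higher by 1.31 on the log2 scale against the striatum (SE 0.297, adjusted P = 0.00123) and by 0.94 against the prefrontal cortex (SE 0.293, adjusted P = 0.0123).

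Per kilobase of exon, *C1qb* had the highest level of the 9 in every region of WT mice, at 17.7 ± 0.557 in cerebellum, 96.7 ± 12.0 in striatum and 90.5 ± 6.52 in prefrontal cortex (mean ± SD in CPM per kb, n = 3). *Serping1* was second in the cerebellum, at 12.1 ± 1.01, ahead of *C1qc* at 7.69 ± 0.527 and *C1qa* at 7.16 ± 0.466, whose libraries overlapped. *C4b* followed there at 1.13 ± 0.289, then *Itgam* at 0.616 ± 0.0222. *C3ar1* at 0.452 ± 0.00441 and *C5ar1* at 0.336 ± 0.142 overlapped, and *C3* was lowest at 0.155 ± 0.0607. In the striatum *C1qc* at 37.2 ± 2.66 and *C1qa* at 34.6 ± 2.42 came next and overlapped. *Itgam* at 4.85 ± 0.780, *Serping1* at 4.84 ± 1.57 and *C4b* at 4.19 ± 1.64 formed an overlapping middle group, above *C5ar1* at 0.868 ± 0.373 and *C3ar1* at 0.706 ± 0.163, and *C3* was again lowest at 0.123 ± 0.0690. The prefrontal cortex had *C1qa* at 37.0 ± 2.12 and *C1qc* at 34.2 ± 2.07, which overlapped, then *Serping1* at 6.27 ± 0.805, *Itgam* at 4.22 ± 0.824 and *C4b* at 2.48 ± 1.18, which did not overlap. *C5ar1* at 1.16 ± 0.465 and *C3ar1* at 0.943 ± 0.260 overlapped with the lowest *C4b* library, and *C3* was at 0.101 ± 0.0720.

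**Figure D3:**
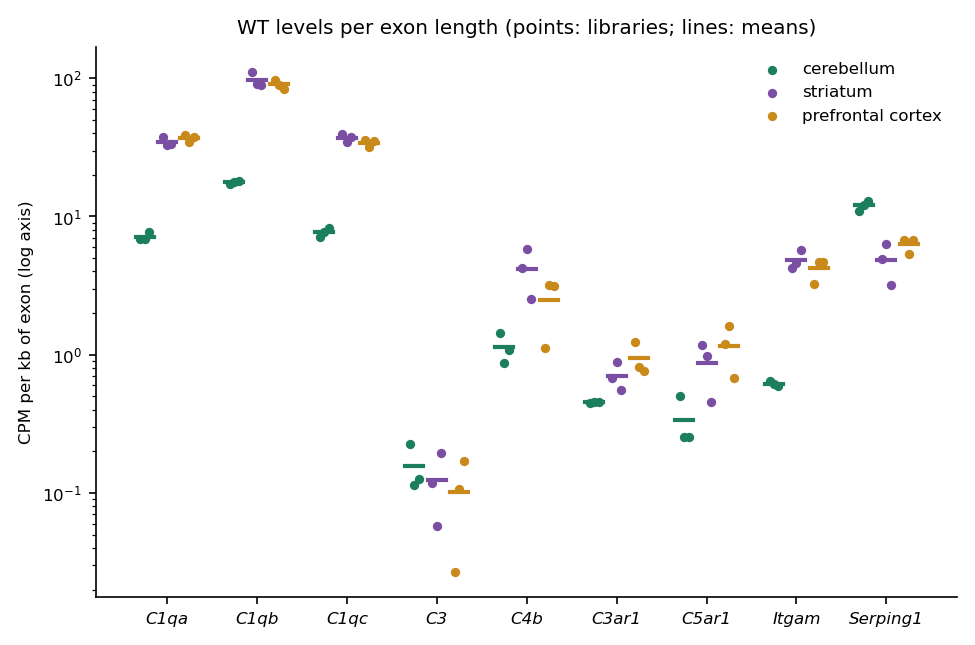
Level of the 9 genes in WT cerebellum, striatum and prefrontal cortex, in CPM per kilobase of exon on a log axis, with points for the 3 libraries of each region and lines for their means. *C1qb* is highest in each region and *C3* lowest, and *Serping1* is higher in the cerebellum, at 12.1, than in the striatum, at 4.84.

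The known source of C1q and CD11b in brain is the microglia, and the C1q chains were read beside 16 microglial marker genes. In the KI cerebellum 8 of the 16 were called higher and 0 lower, and all 16 had a positive log2 fold change, with a median of 0.74. Among the 8 were *Aif1*, *Cd68*, *Csf1r*, *Ctss*, *Cx3cr1*, *Siglech* and *Tyrobp*, with log2 fold changes from 0.58 for *Cx3cr1* to 1.33 for *Aif1*. The first 3 genes of the list were *P2ry12*, with 0.22 (adjusted P = 0.493), *Tmem119*, with 0.83 (adjusted P = 0.0836), and *Cx3cr1*, with 0.58 (adjusted P = 0.0383). In the striatum 1 marker was called, *Ctss*, a lysosomal protease, which was named after its values were seen (log2 fold change 0.75, adjusted P = 0.0174), and the median was 0.00. In the prefrontal cortex 0 were called by edgeR, DESeq2 or limma, 3 had an unadjusted P under 0.05, and the median was -0.16. The 3 were *Ctss*, which was higher in KI, and *P2ry12* and *Gpr34*, which were lower. The same 3 had an unadjusted P under 0.05 in the striatum, in the same directions. *Gpr34* was also named after its values were seen. All 16 markers were lower in WT cerebellum than in WT striatum and WT prefrontal cortex, with median log2 fold changes of -2.40 and -2.24.

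Summed over the 16 markers, their level was 183 to 188 CPM in WT cerebellum, 281 to 356 CPM in KI cerebellum, 831 to 909 CPM in WT striatum and 747 to 790 CPM in WT prefrontal cortex. The summed level of the 3 C1q chains was 39.5 to 43.6 CPM in WT and 77.3 to 108 CPM in KI cerebellum. The ratio of these sums was 0.216 to 0.232 in WT and 0.252 to 0.302 in KI cerebellum, and every KI library was above every WT library. This ratio depends on the mix of markers in the sum. Single markers had log2 fold changes from 0.22 to 1.33, beside 0.96 to 1.28 for the C1q chains, so that some rose as much as C1q. The ratio was 0.240 to 0.259 in WT and 0.238 to 0.292 in KI striatum and 0.255 to 0.272 in WT and 0.232 to 0.270 in KI prefrontal cortex, where the genotypes overlapped. These ratios were given no test, and the part of a change in microglial number or state in the rise of C1q was not tested.

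**Figure D4:**
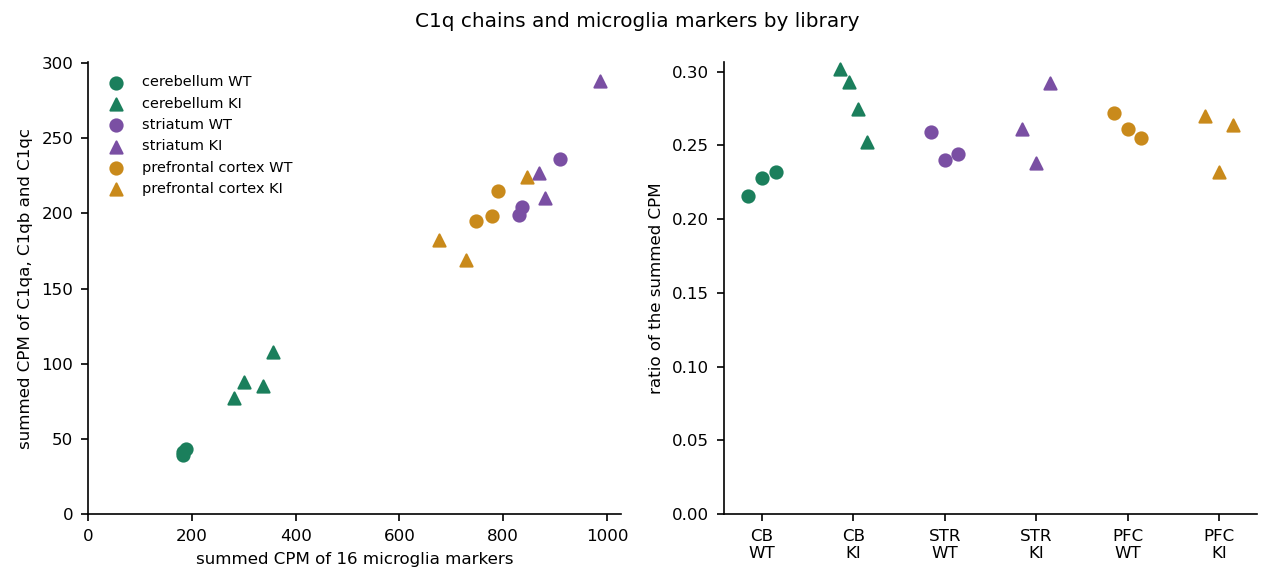
Left, summed CPM of the 3 C1q chains against summed CPM of 16 microglial marker genes, with 1 point per library, circles for WT and triangles for KI. Right, the ratio of the 2 sums by group, on an axis from 0, with KI cerebellum at 0.252 to 0.302 above WT cerebellum at 0.216 to 0.232.

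Markers of other cell types were read in the same way. Of 6 perivascular macrophage markers 0 were called in the KI cerebellum (median log2 fold change 0.52), and apart from KI replicate 1 their summed level was 12.0 to 13.9 CPM in KI against 10.8 to 14.2 CPM in WT. Of 8 blood leukocyte markers 4 passed the filter and 0 were called, with a median log2 fold change of 2.5 over these 4, above the 0.74 of the microglial markers, and a range of 0.86 to 5.44. In 3 of the 4 every KI library lay above every WT library, as it did for 5.82% of all tested genes. The summed level of the listed leukocyte markers was 1.44 to 1.70 CPM in WT and 2.72 to 8.81 CPM in KI cerebellum, without overlap. At so low a level the folds of single leukocyte markers rest on few reads, and their size says little. In the prefrontal cortex the same 4 had a median of -2.95, where WT replicate 2 stood at 31.8 CPM for the list. Astrocyte markers, 7 in number, had 0 calls and a summed level of 3070 to 3400 CPM in WT and 3180 to 3710 CPM in KI cerebellum. Fibroblast and mural cell markers, 6 in number, had 0 calls at 194 to 254 and 211 to 268 CPM, 5 endothelial markers 0 calls at 231 to 244 and 239 to 274 CPM, and 5 red blood cell genes 0 calls at 117 to 451 and 160 to 352 CPM. Of 6 cerebellar neuron markers 1 was called, lower in KI, and the list had a median log2 fold change of -0.45 and a range of -1.16 to 0.05. The 1 was the Purkinje cell gene *Pcp2*, which fell by 1.16 on the log2 scale in the KI cerebellum (SE 0.136, adjusted P = 1.96e-04), from 169 to 220 CPM in WT to 69.3 to 98.3 CPM in KI. The part of these markers in the values of the complement genes was not tested.

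Interferon-stimulated genes, a list chosen after earlier results of these libraries had shown them to rise, had calls in all 3 regions. Of 12 genes, 11 were called higher in the KI cerebellum, 12 in the KI striatum and 8 in the KI prefrontal cortex. Over all tested genes 0.517%, 0.392% and 0.0891% were called higher there, in this order. The median log2 fold changes of the list were 2.60, 2.91 and 1.83. In the same striatal libraries 0 of the 9 complement members were called, with log2 fold changes from -0.10 to 0.71. The part of an interferon response in the values of the complement genes was not tested.

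The rest of the complement system was read from a list of 50 further genes, of which 30 passed the filter. By edgeR 0 of the 30 were called in any region, with median log2 fold changes of 0.08 in cerebellum, -0.04 in striatum and -0.06 in prefrontal cortex. In the cerebellum 2 of the 30 had an unadjusted P under 0.05, *Itgb2* and *Csmd1*, and DESeq2 and limma each called *Itgb2*. In the striatum 1 had, *Cd59a*, which DESeq2 called and limma did not, and in the prefrontal cortex 0 had and 0 were called by either tool. Among 13 genes of initiation, amplification and lysis, log2 fold changes in the cerebellum ran from -0.43 for *Cfp*, properdin, which stabilises the C3 convertase (95% interval -0.86 to 0.01), up to 2.60 for *C7*, which held 0 reads in all WT and 0 to 3 reads in all KI cerebellar libraries and so gives no fold. *C1ra*, the protease partner of C1q, had 0.76 (-0.41 to 1.94), and *C2* had 0.50 (-0.47 to 1.47). Untested for low counts were 20 genes, among them *C6*, *C8a*, *C8b* and *C9* of the lytic complex, *Cfb* and *Cfd* of the alternative pathway, and the receptors *C5ar2*, *Cr2*, *Itgax* and *Vsig4*.

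Regulators kept closer to 0. In the cerebellum 12 regulators ran from -0.42 to 0.30, with *Csmd1*, an inhibitor expressed by neurons, at 0.28 (95% interval 0.01 to 0.54, adjusted P = 0.477) and *Clu*, clusterin, at 0.05 (-0.23 to 0.34). *Cd59a*, which blocks the lytic complex and is named here after its values were seen, was at 76.2, 63.4 and 56.7 CPM in WT striatum and at 21.6, 37.7 and 38.9 CPM in KI striatum. Every KI library was below every WT library, but the log2 fold change of -1.0 (SE 0.288) was not called (adjusted P = 0.202), while DESeq2 gave an adjusted P of 0.0444. Beside it, all 5 striatal neuron markers also had every KI library below every WT library in the striatum, with 0 called and a median of -0.67, and their part in this value was not tested. The share of all tested genes with every KI library below every WT library is not given here.

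**Figure D5:**
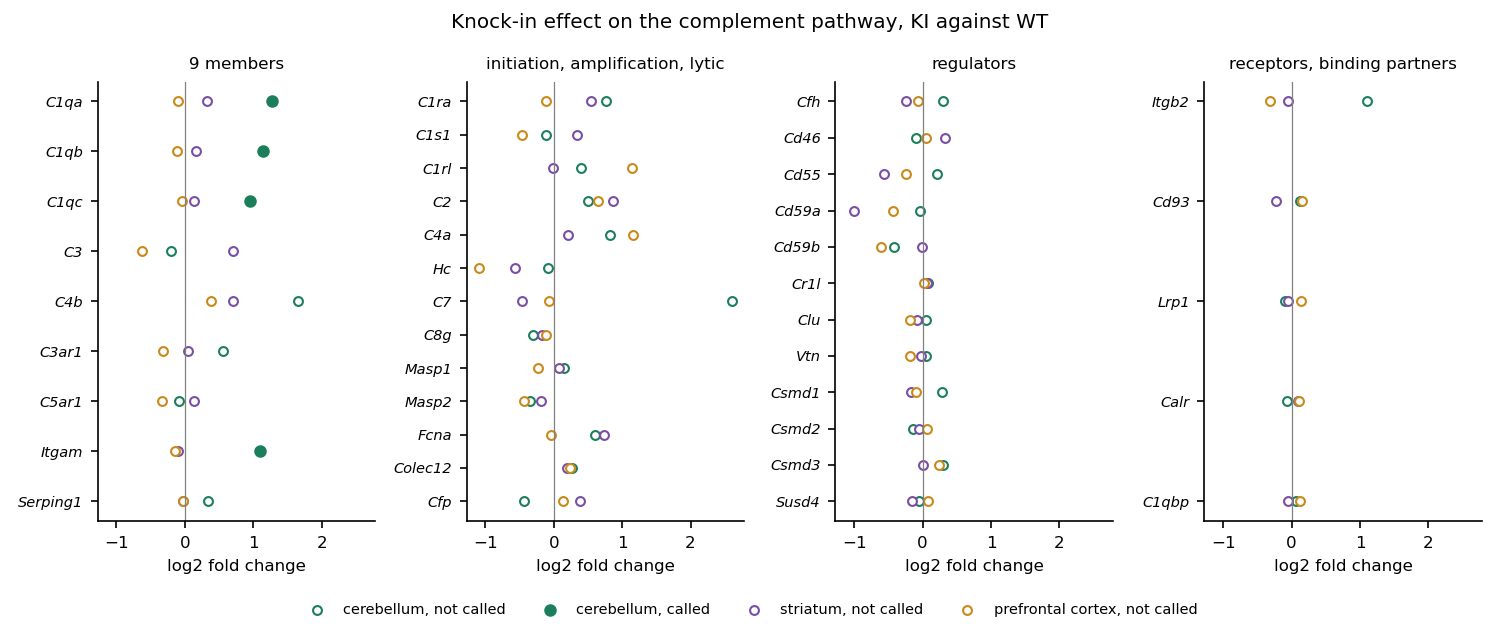
Log2 fold change of KI against WT for the 9 members and 30 further complement genes, grouped by role, with 1 colour per region and filled points for genes called at an adjusted P under 0.05. The 4 filled points are the cerebellar values of *C1qa*, *C1qb*, *C1qc* and *Itgam*, and *Itgb2* at 1.11 is the highest cerebellar value of the other panels apart from *C7*, which rests on 0 to 3 reads per cerebellar library.

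Genes with the most similar pattern were sought by Pearson's r of log2 CPM over the 19 libraries, which share regions and genotypes. For *C1qa* these were *Fcer1g* (r = 0.990), *Laptm5* (0.976), *Fcgr3* (0.969), *Tyrobp* (0.965) and *Aif1* (0.962), beside *C1qb* at 0.992 and *C1qc* at 0.983. *Fcer1g* and *Tyrobp* encode signalling adaptors of myeloid receptors and *Fcgr3* an Fc receptor. With the mean of each region subtracted, the leading genes included *Fcer1g* (0.954), *Laptm5* (0.927), *Tlr7* (0.884) and *Cyba* (0.881). For *C4b* the leading genes were *Tmem221* (0.859), *Ctso* (0.855), *Selenbp1* (0.848), *Nod1* (0.835) and *Emilin2* (0.830). After subtraction they were *Apod* (0.838), *Gpsm2* (0.828), *Fcgr3* (0.814), *Tlr13* (0.808) and *Parp12* (0.802), of which *Fcgr3* was also listed for *C1qa*. *Serping1* followed *Slc6a20a* (0.946), *Sla* (0.936), *A930024E05Rik* (0.934), *Enpp1* (0.933) and *Renbp* (0.931), and after subtraction *Ogn* (0.909), *Dcn* (0.870), *Slc26a7* (0.852), *Slc6a20a* (0.839) and *Tmbim6* (0.836). *Ogn* and *Dcn* encode matrix proteoglycans made by fibroblasts. With the region means subtracted, the r of *C1qa* was 0.760 with *Itgam*, 0.733 with *C4b*, 0.525 with *C3ar1*, 0.458 with *Serping1*, 0.039 with *C5ar1* and 0.017 with *C3*, the last 2 being sparse in counts.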

How the data were processed

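The authors deposited a table of raw counts of reads per Ensembl gene, with no normalization, and a table with the signal of the same counts divided by 1 DESeq2 size factor per library. Per the labels, libraries were made with the SMART-Seq v4 and Nextera XT kits, which do not mark strand, and the submitters' processing notes name bcl2fastq 2.17.1.14, STAR 2.5.2b, HTSeq, DESeq2 1.10.1 and the build GRCm38.p3, with no role. The study's methods name Cufflinks and Cuffdiff. Settings of the counting are not given in the sources used here.

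Counts were fitted in R 4.3.3 with edgeR 4.0.16 in 1 quasi-likelihood model over all 19 libraries and 6 groups (filterByExpr, TMM, 13 residual degrees of freedom, common biological coefficient of variation 0.191). Adjustment followed Benjamini and Hochberg over 16841 genes, with a threshold of 0.05, and 95% intervals used the moderated degrees of freedom. Log2 CPM for correlations used a prior count of 2. Gene names, positions and exon lengths came from GENCODE M21. The fit was tested on simulated data. Alternatives were limma 3.58.1 on log2(value + 1) of the deposited signal, DESeq2 1.42.0, other scalings and filters, a replicate block, a sex covariate, and leaving out each library.

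The members and lists were chosen with earlier results of these data known. Genes named were the 9 members, the other complement genes called or with the 3 smallest P values in the cerebellum, the first 3 tested markers where a list is described singly, and the 5 genes most like *C1qa*, *C4b* and *Serping1*. *C1ra*, *C2*, *C4a*, *C7*, *Clu*, the untested complement genes and the called microglial markers beyond the first 3 were named outside these rules. Other exceptions are stated beside their values. A gene that these rules also name is not reported here. Same-numbered striatum and prefrontal cortex libraries of 1 genotype deviated together (r = 0.233 to 0.368 in 6 pairs, with the same sex by *Xist* and Y-linked counts in all 6). The r was lower for cerebellar numbers (-0.104 to 0.163) and for numbers across genotypes (-0.245 to 0.172). The main fit used no pairing, so its P values between striatum and prefrontal cortex take these libraries as separate. The replicate block joined same-numbered libraries, also cerebellar ones and ones across genotypes. A further block was fitted on the striatum and prefrontal cortex alone. Median library total was 15082703 counts. The reads carry no molecular identifiers and can be copies of 1 molecule, so limits from counts cover counting error only.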

Additional observations from a re-analysis of the deposited data

Results flagged for a closer look

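The knock-in effect on *C1qa* differed between the cerebellum and the prefrontal cortex by 1.38 on the log2 scale by the edgeR interaction term, which stood out because it passed the threshold (adjusted P = 0.0116). All 4 KI cerebellum libraries were above the WT libraries, and the genotypes overlapped in the prefrontal cortex. No cerebellar KI library of the 9 genes lay far enough from the others of its group to be listed by Dixon's criterion at 95%.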

How the results depend on the processing

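The calls of *C1qa*, *C1qb*, *C1qc* and *Itgam* in the KI cerebellum held under every alternative run, with adjusted P up to 0.0444 (*Itgam*), and on leaving out each of the 19 libraries, with adjusted P up to 0.0406 (*Itgam*). DESeq2, the weaker filter, the cerebellar libraries alone and the sex covariate added *C4b*, which made 5. For the difference of the effect between cerebellum and prefrontal cortex, DESeq2 called 4 members, the weaker filter 2, and leaving out 1 library gave 0 to 2. Between cerebellum and striatum DESeq2 called 4. Among the other complement genes, *Itgb2* was the 1 gene called in the cerebellum by DESeq2, by limma, with at least 10 counts in every library, with library totals alone and with the sex covariate, and leaving out 1 library gave 0 to 1. In the striatum DESeq2 called 1, *Cd59a*. At least 10 counts in every library left out *C3* and *C5ar1*. The cause of these changes was not tested.

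For KI against WT the replicate block joined same-numbered KI and WT libraries of a region. For the other comparisons it joined same-numbered libraries of a genotype, with the cerebellum included. Only the striatum and prefrontal cortex numbers showed signs of pairing. With the block *C1qa* in the cerebellum kept its call. *C4b* in WT cerebellum against WT prefrontal cortex was at -1.07 and no longer called (adjusted P = 0.0741). Uncalled values changed sign with the replicate block for *C3ar1* in the striatum (-0.02) and *C5ar1* in the cerebellum (0.21) and in its difference to the striatum (0.04), with limma for *C3ar1* in the striatum (-0.03), with library totals alone for *Serping1* in the striatum (0.04), and with the sex covariate for *Serping1* in the striatum (0.02) and the prefrontal cortex (0.02). Fitted on the striatum and prefrontal cortex alone, the block changed no call.

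Leaving out 1 library turned the sign of further uncalled log2 values, which ranged as follows. *C1qc* ran from -0.00 to 0.22 in the striatum and from -0.15 to 0.05 in the prefrontal cortex. *C3* ran from -0.37 to 0.18 in the cerebellum, -0.18 to 1.18 in the striatum, -0.03 to 0.80 for WT cerebellum against striatum, -0.18 to 0.88 for WT striatum against prefrontal cortex and -0.17 to 0.88 for the effect in cerebellum against prefrontal cortex. *C3ar1* ran from -0.39 to 0.24 in the striatum and -0.07 to 0.81 for the effect in striatum against prefrontal cortex. *C5ar1* ran from -0.56 to 0.33 in the cerebellum, -0.16 to 0.42 in the striatum, and -0.71 to 0.19 and -0.24 to 0.65 for the effect in cerebellum against striatum and prefrontal cortex. *Itgam* ran from -0.19 to 0.04 in the striatum and -0.04 to 0.20 for the effect in striatum against prefrontal cortex. *Serping1* ran from -0.30 to 0.22, -0.30 to 0.28 and -0.30 to 0.27 in the striatum, the prefrontal cortex and their difference. The reads of *C3* and *C5ar1*, 193 and 524 in all libraries, limit what can be said of them.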
